A study of Homo sapiens with 18 samples.

Results

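The transcripts described here are those of the solute carriers, the membrane proteins that move nutrients, ions and metabolites, in human embryonic stem cells (hESCs) given Wnt3a. They were chosen by name alone: every gene of the expression table whose symbol is SLC, a family number and the letter A, or starts with SLCO. The rule finds 163 of 10975 genes, in 43 families. Of these, 156 encode carriers. A further 5 symbols belong to regulators or neighbours named after a carrier (SLC9A3R1, SLC9A3R2, SLC4A1AP, SLC2A4RG and SLC7A6OS), and 2 are pseudogenes of SLC7A5 (SLC7A5P1 and SLC7A5P2). Another 15 SLC35 symbols, whose family number is followed by a different letter, fall outside the rule. Values in the SP5 mutant lines exist for 10 of the 163 symbols, within a list of 497 genes.

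All RNA came from the H1 (WA01) hESC line, grown in E8 medium. Wild-type (WT) cells were given Wnt3a at 1 nM for 12, 24 or 48 h, in a first series and again in a repeat, WT rep2, and the 0 h cells of the first series received the buffer in which Wnt3a is stored. The dZF1 and dZF2 lines went through the same times of Wnt3a. Each is 1 clone of H1 in which CRISPR-Cas9 removed, from both alleles of SP5, the DNA that encodes the zinc fingers. RNA-Seq gave 1 library per series and time. RPKM are given for the first WT series alone, so each of its fold changes compares single libraries, with no error and no test. Levels of the first WT series are RPKM (reads per kilobase of transcript, scaled to library size), which allows a comparison between genes. Levels of WT rep2 and of the clones are given as a ratio to the highest of the 4 WT rep2 libraries, in a list that was picked for its changes in the first WT series. Only for these listed genes do 2 WT series and 2 clones give a spread, as changes from the 0 h library of each series.

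The pluripotency genes POU5F1, SOX2, LIN28A and DNMT3B were at 105.5 RPKM or above in all 4 libraries of the first WT series. Each was lower at 48 h than at 0 h. SOX2 went from 238.3 to 105.5 RPKM and DNMT3B from 393.8 to 219.2 RPKM. LIN28A went from 1014.1 to 784.7 RPKM and POU5F1 from 294.6 to 243.1 RPKM. NANOG lay between 3.1 and 5.9 RPKM. EOMES, a mesendoderm marker, went from 0 to 34.8, 109.3 and 139.8 RPKM. The mesendoderm markers T (0.2, 5.8, 21.7 and 10.1 RPKM) and MIXL1 (0, 68.6, 271.1 and 76.4 RPKM) were highest at 24 h. SOX17, an endoderm marker, was at 0.6 RPKM at 24 h and 89.6 RPKM at 48 h. The summed RPKM of 3 fibroblast genes went from 213.7 to 122.1, most of it THY1 (195.7 to 95.4 RPKM). COL1A1 was also lower at 48 h (4.2 to 2.6 RPKM), but COL1A2 was higher (13.8 to 24.1 RPKM). Neural (PAX6, SOX1) and trophoblast (CGA, GATA3) markers are not listed. SP5 itself was at 0, 49.8, 90.5 and 135.7 RPKM over the 4 times. Its ratios were 0.02, 0.02, 0.09 and 1.0 in WT rep2, then 0.01, 0.23, 0.9 and 2.54 for dZF1 and 0, 0.62, 0.75 and 2.61 for dZF2. These values take in reads of the whole gene and do not check the deletion. WT rep2 stood apart from the first WT series: at 24 h EOMES was at 0.05 of its maximum there and at 0.782 of its maximum in the first WT series. AXIN2, a Wnt target, was highest at 12 h in both. The part of this difference between the WT series in the values of the clones against WT rep2 was not tested. In bulk RNA, a change in the share of a cell type and a change in RNA per cell cannot be told apart.

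Solute carriers are grouped into families by sequence, and a family often shares a substrate. They work as exchangers, as cotransporters driven by sodium or protons, or as facilitators that let a substrate follow its gradient. Embryonic stem cells are known for heavy use of glucose and glutamine and for export of lactate, all of which cross the membrane through carriers of the SLC2, SLC1, SLC38 and SLC16 families. SP5 is a zinc-finger protein of the SP/KLF family, whose members bind GC-rich DNA such as the GC box GGGCGG.

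Few carriers lay near an SP5 peak. The SP5 ChIP samples are labelled 0 h and 24 h, the second of them with Wnt3a. The 2 peak lists nevertheless rest on the same ChIP library and differ in the control, which came from cells given buffer or Wnt3a. Which of the 2 labels belongs to that shared library was not tested. The paper describes its SP5 peaks as those of cells given Wnt3a, with no significant binding in untreated cells. Within 2000 bases of the annotated start, 1 of the 163 members, SLC37A4, had a peak summit, which is 0.613% of the members against 1.41% of 10651 genes matched to the annotation. SLC37A4, the glucose 6-phosphate carrier of the endoplasmic reticulum, lies on the minus strand at chr11:118894461-118901616 (hg19), and its summit is 14 bases upstream of the start. That peak held 27 tags with a false discovery rate (FDR) of 73.76%, and was called only when cells given buffer served as the control. Within 10000 bases SLC5A9 is added, and within 50000 bases SLC47A1, SLC2A4, SLC25A23 and SLC11A2, for 6 members or 3.68% against 5.75% of all genes. For SLC5A9 and SLC47A1, the member's own start was the nearest coding start. The SLC2A4 summit is 115 bases from the start of GABARAP and the SLC25A23 summit 372 bases from that of TUBB4A. The SLC11A2 summit lies within CSRNP2. At an FDR of 5% or lower no member had a summit within 50000 bases, where 69 genes had one.

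Sequence is shown for the near-start peak and for 3 members whose peaks lie inside the gene or before it, with every GGGCGG and GGGAGG on either strand in capitals (the reverse complements read CCGCCC and CCTCCC). The SLC37A4 stretch is the 150 bases before the start, on the strand of the gene (chr11:118901617-118901766, minus strand). The other stretches are 151 bases centred on the summit, on the plus strand of hg19: SLC5A9 at chr1:48694066-48694216, SLC2A3 at chr12:8112411-8112561 and SLC47A1 at chr17:19363952-19364102.
SLC37A4: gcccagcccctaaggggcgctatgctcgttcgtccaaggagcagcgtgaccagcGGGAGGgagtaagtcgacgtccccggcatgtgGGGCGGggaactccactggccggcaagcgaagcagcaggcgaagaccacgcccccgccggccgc
SLC5A9: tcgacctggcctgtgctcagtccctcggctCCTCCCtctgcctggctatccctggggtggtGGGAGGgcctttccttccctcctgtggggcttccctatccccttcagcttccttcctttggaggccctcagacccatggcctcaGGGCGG
SLC2A3: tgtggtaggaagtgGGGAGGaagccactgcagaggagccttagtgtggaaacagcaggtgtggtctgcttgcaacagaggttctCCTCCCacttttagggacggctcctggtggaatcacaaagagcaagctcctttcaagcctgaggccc
SLC47A1: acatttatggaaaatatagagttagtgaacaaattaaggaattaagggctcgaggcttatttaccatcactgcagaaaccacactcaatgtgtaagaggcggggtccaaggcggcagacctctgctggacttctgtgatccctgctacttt

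The SLC37A4 stretch holds 1 GGGCGG and 1 GGGAGG, and the 151 bases around its summit, which run into the transcript, hold 2 GGGCGG. The SLC5A9 stretch holds 1 GGGCGG and 2 GGGAGG. Its summit lies within the gene and in an exon of another gene that is not annotated as protein-coding. That summit is 611 bases from a start of an SLC5A9 transcript. In SLC2A3 there are 2 GGGAGG and no GGGCGG, and the summit is inside the annotated gene, outside its exons, 23703 bases from the nearest transcript start. SLC47A1 has neither motif around its summit, which lies 34671 bases before the gene in an exon of a different gene not annotated as protein-coding. Of 804 distinct summits in the peak lists, 30.3% held GGGCGG, 40.2% held GGGAGG and 52.4% held at least 1 of them within 151 bases. The SLC47A1 peak was called with either control (FDR 29.19% and 47.22%), the SLC5A9 peak with the buffer control (FDR 74.94%) and the SLC2A3 peak with the Wnt3a control (FDR 21.37%).

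The most abundant members at 0 h carry lactate, phosphate and adenine nucleotides. The highest level was that of SLC16A1 (MCT1, a lactate and pyruvate carrier), at 351.6, 378.5, 338.9 and 270.9 RPKM at 0, 12, 24 and 48 h. SLC25A3, the mitochondrial phosphate carrier, was at 343.0, 362.6, 354.5 and 275.9 RPKM, and SLC25A5, an ADP/ATP exchanger, was at 331.2, 357.3, 356.8 and 323.9 RPKM. SLC25A5 and other genes with processed pseudogenes may share reads with their copies. Below them came SLC38A2, a sodium-coupled glutamine carrier, SLC2A3, a glucose carrier, SLC1A5, a glutamine exchanger, SLC3A2, the heavy chain that brings SLC7 light chains to the surface, and SLC39A1, a zinc importer. Their 0 h levels lay between 165.6 and 243.8 RPKM. The members together made up 1.26% of all RPKM at 0 h and 1.20% at 48 h.

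Few carriers changed at 12 and 24 h, and the changes went both ways at 48 h. Changes are log2 ratios of RPKM + 1 to the 0 h library, called at 2-fold or more. At 12 h, 2 members were higher (1.23%, against 1.22% of all genes) and 1 was lower (0.613%, against 0.738%). At 24 h, 4 members were higher (2.45%, against 2.62%) and 1 was lower (0.613%, against 1.36%). At 48 h, 7 members were higher (4.29%, against 4.87%) and 7 were lower (4.29%, against 2.95%). With 5 in place of 1 added to RPKM, the 48 h counts were 2 and 2, and with 0.1 they were 9 higher and 10 lower. Apart from the lower members at 48 h, of which 6 are among the 156 carriers, the shares lay at or below the background. The median log2 change of the members was 0.01, -0.04 and -0.06 at the 3 times, beside -0.01, -0.01 and 0.00 for all genes. At 48 h, 120 of 163 members (73.6%) were within 0.5 of 0 on the log2 scale, beside 75.4% of all genes.

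**Figure D1:**
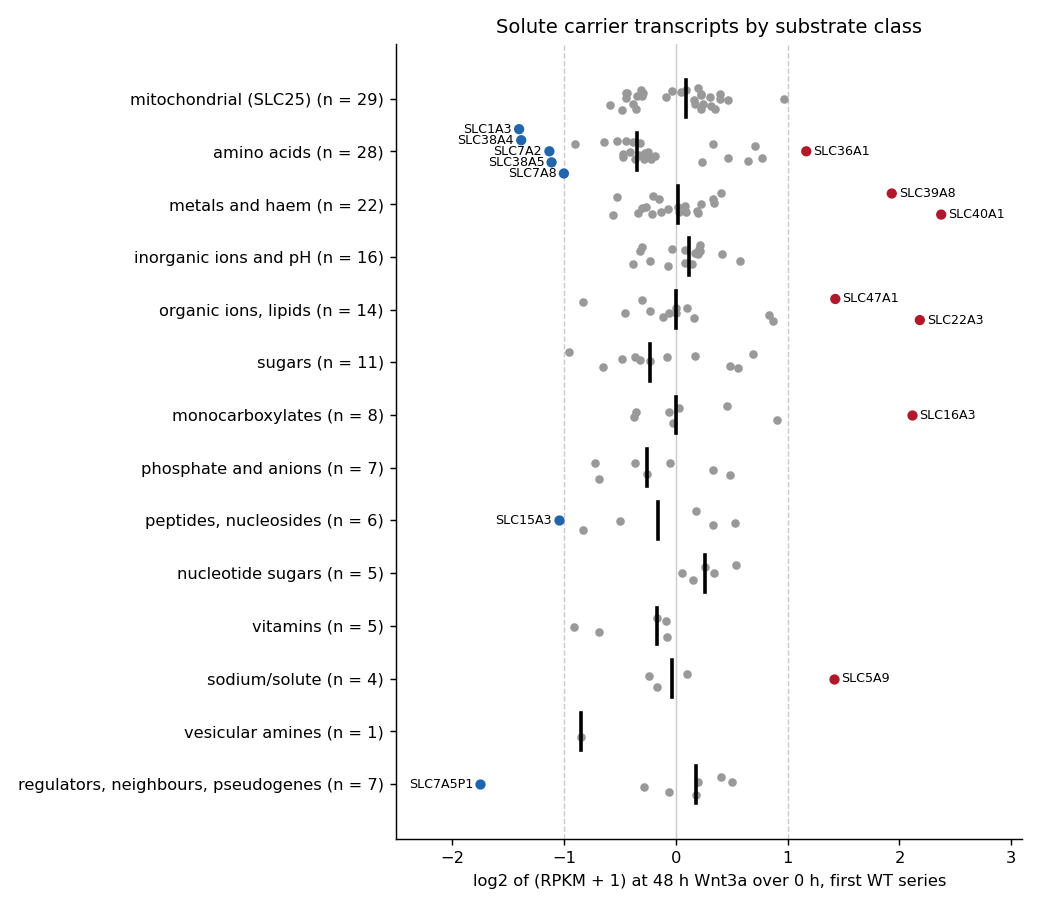
Each point is 1 of the 163 symbols, placed by its log2 ratio of RPKM + 1 at 48 h to 0 h in the first WT series (1 library each) and sorted by the substrate of its family. Black bars are class medians, dashed lines mark 2-fold, and the coloured, named points are the 7 higher and 7 lower symbols; 5 of the lower ones are amino acid carriers.

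Amino acid carriers were the class with most of the lower transcripts at 48 h. Among 28 carriers of the SLC1, SLC3, SLC6, SLC7, SLC36, SLC38 and SLC43 families, 21 were lower than at 0 h and 7 higher, with a median log2 change of -0.35. Over all genes, 50.1% were lower and 48.9% higher, and over the 163 members 52.8% and 46.6%. Of the 28 amino acid carriers, 5 were lower by 2-fold or more (against 2.95% of all genes) and 1 was higher by as much (against 4.87%). The summed RPKM of the 28 went from 1274.3 to 968.3. SLC1A3, a glutamate carrier best known from glia, was at 24.1, 23.1, 16.1 and 8.5 RPKM, a log2 change of -1.40 at 48 h. SLC38A4, a neutral amino acid carrier of system A, was at 12.3, 13.6, 10.4 and 4.1 RPKM (log2 change -1.38). SLC38A5, a sodium-coupled carrier of glutamine, serine and glycine, was at 11.1, 13.2, 11.6 and 4.6 RPKM (log2 change -1.11). All 3 were lowest at 48 h, and SLC38A4 and SLC38A5 were still at or near their 0 h level at 24 h.

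SLC7A2 carries arginine and lysine and stood at 11.7, 12.9, 8.8 and 4.8 RPKM, with a log2 change of -1.13 at 48 h. SLC7A3, another arginine carrier, decreased at each time, from 68.6 to 53.5, 47.4 and 36.3 RPKM, and ended at -0.90, just inside the 2-fold limit. The ubiquitous arginine carrier SLC7A1 was at 51.4 RPKM at 0 h and 39.7 RPKM at 48 h, so that SLC7A3 made up 57.2% of the summed RPKM of SLC7A3 and SLC7A1 at 0 h and 47.8% at 48 h.

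The large neutral amino acid carriers moved in opposite directions. SLC7A5 (LAT1), a leucine exchanger that pairs with SLC3A2, was at 55.3, 105.8, 126.4 and 94.8 RPKM, with log2 changes of 0.92, 1.18 and 0.77. It was past 2-fold at 24 h only. SLC7A8 (LAT2), its relative and a partner of the same heavy chain, was at 121.5, 99.5, 73.9 and 60.2 RPKM, a log2 change of -1.0 at 48 h that only just reaches 2-fold. The share of SLC7A5 thus went from 31.3% to 51.5%, 63.1% and 61.2% of their summed RPKM. SLC3A2 was at 176.9, 216.0, 224.5 and 144.9 RPKM, highest at 24 h as SLC7A5 was. The pseudogene SLC7A5P1 was at 10.1, 4.4, 7.8 and 2.3 RPKM, the lowest log2 change among the members (-1.75), but it shares sequence with SLC7A5 and its level is uncertain. SLC7A5P2 was at 4.1 and 3.9 RPKM at 0 and 48 h.

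Other glutamine carriers, each abundant, were lower by less than the 2-fold seen for SLC38A5. SLC1A5 was at 182.7, 175.2, 160.7 and 116.5 RPKM (log2 change -0.64 at 48 h), SLC38A2 at 243.8, 212.8, 190.3 and 179.0 RPKM (-0.44), and SLC38A1, a further sodium-coupled glutamine carrier, at 93.2, 89.6, 75.8 and 66.7 RPKM (-0.48). Each of the 3 was lower at every later time. The share of SLC38A1 in the sum of SLC38A1 and SLC38A2 stayed between 27.1% and 29.6%. SLC7A11, the light chain of the cystine/glutamate exchanger, was at 15.6, 22.1, 18.8 and 13.6 RPKM, with a log2 change of 0.48 at 12 h and -0.19 at 48 h. SLC36A1, a proton-coupled carrier of small amino acids on lysosomes, was the member of the class that was higher by 2-fold, at 3.9, 4.0, 4.4 and 10 RPKM (log2 change 1.17).

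Among the 22 carriers of metals and haem, SLC39A8 and SLC40A1 were higher and none was lower by 2-fold at 48 h. Over all genes, 4.87% were higher and 2.95% lower by as much. SLC39A8 (ZIP8), an importer of zinc and manganese, was at 23.7, 81.7, 93.6 and 93.2 RPKM, with log2 changes of 1.74, 1.94 and 1.93. It was past 2-fold at all 3 times, as SLC47A1 also was, and most of its increase lay before 12 h. SLC39A14 (ZIP14), a close relative with similar substrates, was at 121.8, 113.6, 93.7 and 82.2 RPKM, so that SLC39A8 went from 16.3% to 53.1% of their summed RPKM. SLC40A1 (ferroportin), the iron exporter, was at 0.1 RPKM at 0 h, is listed at 0 at 12 and 24 h, and was at 4.7 RPKM at 48 h (log2 change 2.37). The iron importer SLC11A2 stood at 19.3 and 20.6 RPKM at 0 and 48 h.

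At 48 h a lactate carrier was higher and its relative lower, while the glucose carriers SLC2A3 and SLC2A1 were both higher. SLC16A3 (MCT4), a lactate exporter of glycolytic cells, was at 11, 9.6, 17.3 and 51.0 RPKM, a log2 change of 2.12 at 48 h, while SLC16A1 had a log2 change of -0.37. The share of SLC16A3 in their summed RPKM was 3.03%, 2.47%, 4.86% and 15.8%. SLC2A3 (GLUT3) was at 193.1, 224.0, 264.6 and 284.9 RPKM (log2 change 0.56), and SLC2A1 (GLUT1) at 69.3, 69.7, 71.5 and 78.2 RPKM (0.17). The changes of SLC16A1 and SLC2A1 were within 0.5 of 0 on the log2 scale, as were 75.4% of all genes at 48 h. SLC2A3 was 2.79 times SLC2A1 at 0 h and 3.64 times at 48 h, with the reservation that SLC2A3 has a near-identical neighbour, SLC2A14, which is not listed. SLC2A12, a further glucose carrier, fell just short of 2-fold, from 5.8 to 2.5 RPKM (log2 change -0.96). Over the 11 sugar carriers the summed RPKM was 339.5 at 0 h and 435.7 at 48 h, although 7 of the 11 were lower at 48 h.

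SLC22A3 and SLC47A1 carry organic cations and were higher at 48 h, while the class of organic ion and lipid carriers had 7 members higher and 6 lower. SLC22A3 (OCT3), which takes up monoamines and other organic cations, was at 0.3, 1.2, 2.0 and 4.9 RPKM, with log2 changes of 0.76, 1.21 and 2.18. SLC47A1 (MATE1), which exports organic cations against protons, was at 0.6, 3.2, 5.4 and 3.3 RPKM, with log2 changes of 1.39, 2.0 and 1.43. SLC22A3 was highest at 48 h and SLC47A1 at 24 h. SLC5A9, a sodium-coupled sugar carrier, was at 1.1, 0.6, 1.1 and 4.6 RPKM (log2 change 1.42), and SLCO4C1, an organic anion carrier, at 4.2, 8.2, 6.7 and 8.5 RPKM (0.87). The table lists only genes that reach 4 RPKM in some library, so SLC22A3, SLC47A1, SLC5A9, SLC40A1 and SLC36A1, all below that at 0 h, are in it only because a later library was higher. Such a start holds for 15 of the 163 members. With RPKM given to 1 decimal, levels near 1 carry a coarse rounding error.

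**Figure D2:**
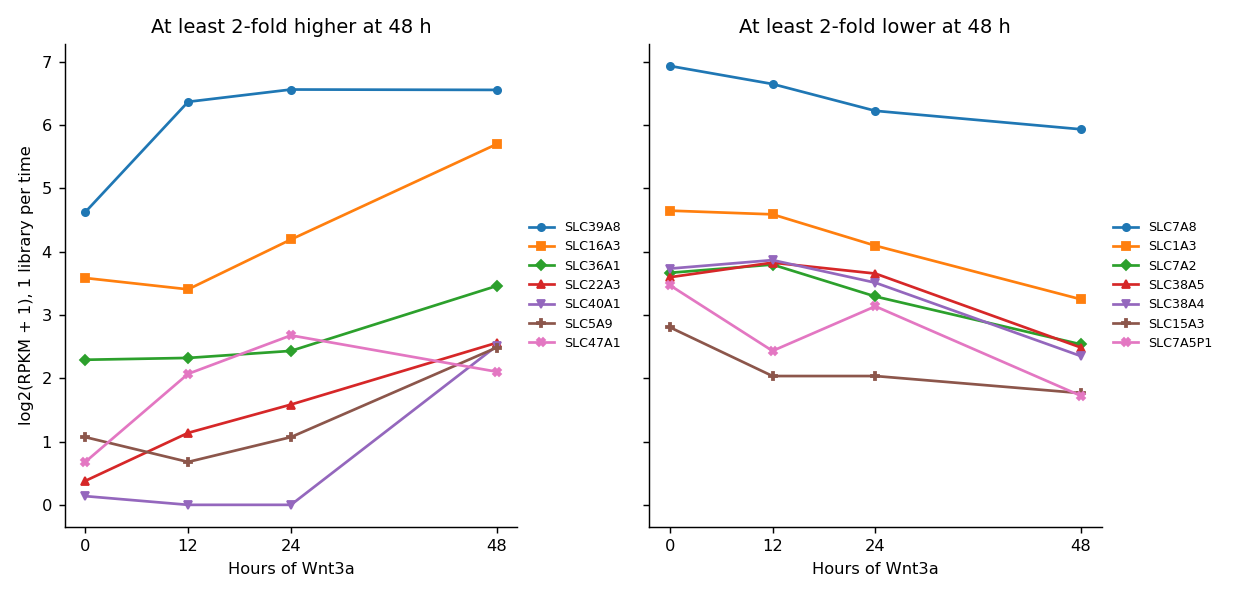
Lines join log2(RPKM + 1) at 0, 12, 24 and 48 h of Wnt3a in the first WT series for the 7 symbols higher (left) and the 7 lower (right) by 2-fold at 48 h, 1 library per time. SLC39A8 reaches 81.7 of its later 93.6 RPKM by 12 h, SLC16A3 and SLC40A1 are highest at 48 h, and SLC38A4, SLC38A5 and SLC7A2 stay near their 0 h levels at 12 h.

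The mitochondrial SLC25 carriers changed little. Of 29, 27 were within 0.5 of 0 on the log2 scale at 48 h (75.4% of all genes were), with a median of 0.09. None reached 2-fold, where 4.87% of all genes were higher and 2.95% lower by as much. The largest change among the 29 was that of SLC25A24, a calcium-dependent ATP-Mg/phosphate carrier, at 22.7, 28.1, 39.1 and 45.2 RPKM (log2 change 0.96). SLC25A1, the citrate carrier, dipped from 60.8 to 50.3 and 46.3 RPKM and stood at 80.1 RPKM at 48 h (log2 change 0.39). Among the ion and pH carriers, 15 of 16 were within 0.5 and none reached 2-fold, beside the same shares of all genes.

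In the smaller classes, the 5 SLC35A carriers, which bring nucleotide sugars into the Golgi, were each higher at 48 h (log2 changes 0.06 to 0.54), and the 5 vitamin carriers were each lower (-0.91 to -0.08). These are sets of 5, where 48.9% of all genes were higher and 50.1% lower. The lowest of the vitamin carriers was SLC19A3, a thiamine carrier, at 6.7, 5.7, 4.8 and 3.1 RPKM. SLC15A3, a lysosomal peptide and histidine carrier, was at 6.0, 3.1, 3.1 and 2.4 RPKM (log2 change -1.04 at 48 h). SLC29A1, the main equilibrative nucleoside carrier, declined at each time, at 108.2, 84.5, 67.9 and 60.6 RPKM (-0.83). SLC16A13, an orphan monocarboxylate carrier relative, was at 3.8 and 8.0 RPKM at 0 and 48 h (0.91). SLC37A4, the member with the near-start summit, was at 19.2, 23.9, 25.5 and 27.3 RPKM (0.49). SLC9A3R2, a scaffold protein and not a carrier, was at 5.1, 5.8, 1.4 and 4.0 RPKM, past 2-fold only at 24 h (-1.35).

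**Figure D3:**
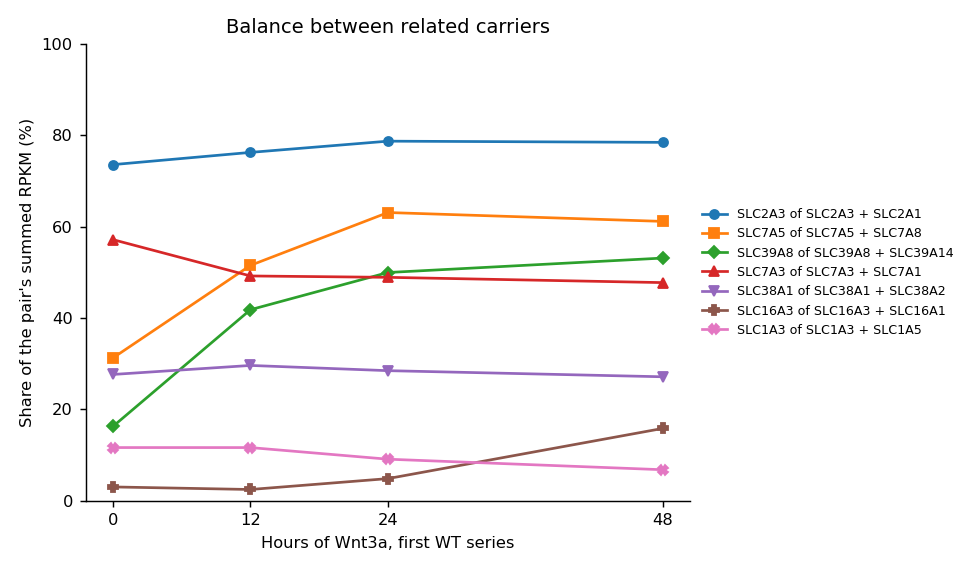
For 7 pairs of related carriers, the vertical axis is the first gene's share (%) of the pair's summed RPKM, against hours of Wnt3a in the first WT series (1 library per time). The share of SLC39A8 went from 16.3% to 53.1%, that of SLC7A5 from 31.3% to 61.2% and that of SLC16A3 from 3.03% to 15.8%, whereas the SLC38A1 line stays between 27.1% and 29.6%.

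The repeat WT series gave the same sign of the 48 h change as the first WT series for the 10 listed members, but not always the same size. In WT rep2, SLC7A11 (log2 change -0.03) and SLC1A3 (-0.07) hardly moved. The list was picked on the first WT series, and the share of the 497 genes with matching signs was not computed. In these and the following values, log2 changes between times were taken on ratios to the maximum with 0.05 added, also in the first WT series. By 2-fold or more at 48 h, WT rep2 had 4 members higher (36.4% of the 497 genes were) and 0 lower (6.44%). The clone dZF1 had 4 higher (47.3%) and 3 lower (13.9%), and dZF2 had 4 higher (45.9%) and 3 lower (16.3%). The 4 higher members were SLC16A3, SLC39A8, SLC47A1 and SLC22A3 in each of the 3 series. The 3 lower members in the clones were SLC1A3, SLC7A2 and SLC38A4.

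These 3 amino acid carriers were lower by 2-fold in the first WT series and in both clones but not in WT rep2. SLC1A3 was at 0.81, 0.72, 1.0 and 0.77 in WT rep2, at 1.2, 1.09, 0.98 and 0.45 in dZF1 and at 1.27, 1.14, 0.98 and 0.45 in dZF2. Its 48 h log2 changes were -1.38 (first WT series), -0.07 (WT rep2), -1.32 (dZF1) and -1.40 (dZF2). SLC7A2 was at 0.86, 1.0, 0.97 and 0.71 in WT rep2, and by 48 h the clones stood at 0.32 (dZF1) and 0.34 (dZF2). Its log2 changes were -1.18, -0.26, -1.23 and -1.09 in the same order of series. SLC38A4 was at 0.91, 0.95, 1.0 and 0.57 in WT rep2, and by 48 h the clones stood at 0.3 (dZF1) and 0.26 (dZF2), with log2 changes of -1.44, -0.63, -1.72 and -1.44. In each case WT rep2 is the series that differs, and the first WT series lies close to the clones. As mean ± SD, the change of SLC1A3 was -0.73 ± 0.93 over the 2 WT series and -1.36 ± 0.06 over the 2 clones, so the WT spread exceeds the difference.

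SLC39A8 at 12 h showed the same pattern. It was at 0.33, 0.36, 0.58 and 1.0 in WT rep2, at 0.27, 0.69, 1.17 and 1.0 in dZF1 and at 0.34, 0.92, 1.32 and 1.0 in dZF2. The 12 h log2 changes were 1.61, 0.11, 1.21 and 1.31, again with the first WT series first and WT rep2 next. At 48 h it was 1.79, 1.47, 1.71 and 1.43, so that WT rep2 had reached the level of both clones by then. SLC47A1 was at 0.11, 0.22, 0.43 and 1.0 in WT rep2, at 0.14, 0.28, 0.89 and 0.51 in dZF1 and at 0.21, 0.34, 0.97 and 0.61 in dZF2. It was highest at 24 h in both clones and in the first WT series, and at 48 h in WT rep2. The 48 h log2 changes of SLC47A1 were 2.04 (first WT series), 2.71 (WT rep2), 1.56 (dZF1) and 1.34 (dZF2). Both WT series were thus above both clones. As mean ± SD, the change was 2.38 ± 0.48 over the WT series and 1.45 ± 0.15 over the clones, a difference of -0.92. SLC22A3 was at 0.38, 0.25 and 1.0 in WT rep2 at 0, 12 and 48 h and is listed at 0 there at 24 h. The clones reached 1.79 (dZF1) and 2.08 (dZF2) at 48 h.

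SLC16A3 and SLC7A5 differed between the clones or from both WT series. SLC16A3 was at 0.15, 0.2, 0.22 and 1.0 in WT rep2, at 0.4, 0.38, 0.37 and 1.75 in dZF1 and at 0.27, 0.25, 0.21 and 0.66 in dZF2. It was higher at 48 h than at 24 h in all 4 series, and at 48 h dZF1 was above WT rep2 and dZF2 below. SLC7A5 was at 0.77, 0.83, 1.0 and 0.92 in WT rep2, at 0.81, 1.12, 1.33 and 0.71 in dZF1 and at 0.98, 1.53, 2.32 and 0.79 in dZF2. All 4 series were highest at 24 h. SLC7A11 was above WT rep2 in both clones at every time, at 0.81, 1.0, 0.94 and 0.79 in WT rep2, 0.96, 1.2, 1.37 and 0.87 in dZF1 and 1.37, 1.58, 1.49 and 1.12 in dZF2. SLCO4C1 was at 0.65, 0.75, 1.0 and 0.79 in WT rep2. The clones stood at 0.59, 0.81, 0.79 and 0.56 (dZF1) and at 0.53, 0.9, 0.98 and 0.86 (dZF2). For SLCO4C1 at 48 h, dZF1 was thus below WT rep2 and dZF2 above.

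Counting the clones against WT rep2 at matched times, 5 of the 10 members were higher in both clones at 0 h and 3 lower (33.0% and 42.5% of the 497 genes). At 12 h, 9 were higher and 1, SLC7A2, was lower (36.6% and 43.3%). Relative to the 0 h library of the same series, the 12 h counts were 5 and 2, and the mean ratios of SLC16A3, SLC47A1 and SLC7A11 changed sign. At 24 h, 5 were higher and 4 lower (51.1% and 29.2%), and at 48 h, 2 were higher and 5 lower (44.7% and 36.0%). The median log2 ratio of the members at 48 h was -0.41 in dZF1 and -0.39 in dZF2, beside 0.09 and 0.06 for the 497 genes. These counts share the WT rep2 libraries. Taken as changes from 0 h, both WT series went one way and both clones the other for 1 member at each of 12, 24 and 48 h, where 6.04%, 2.01% and 1.61% of the 497 genes did. A two-sided exact permutation test of the 2 WT series against the 2 clones gives 0.333 at best, so no member could pass 0.05.

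**Figure D4:**
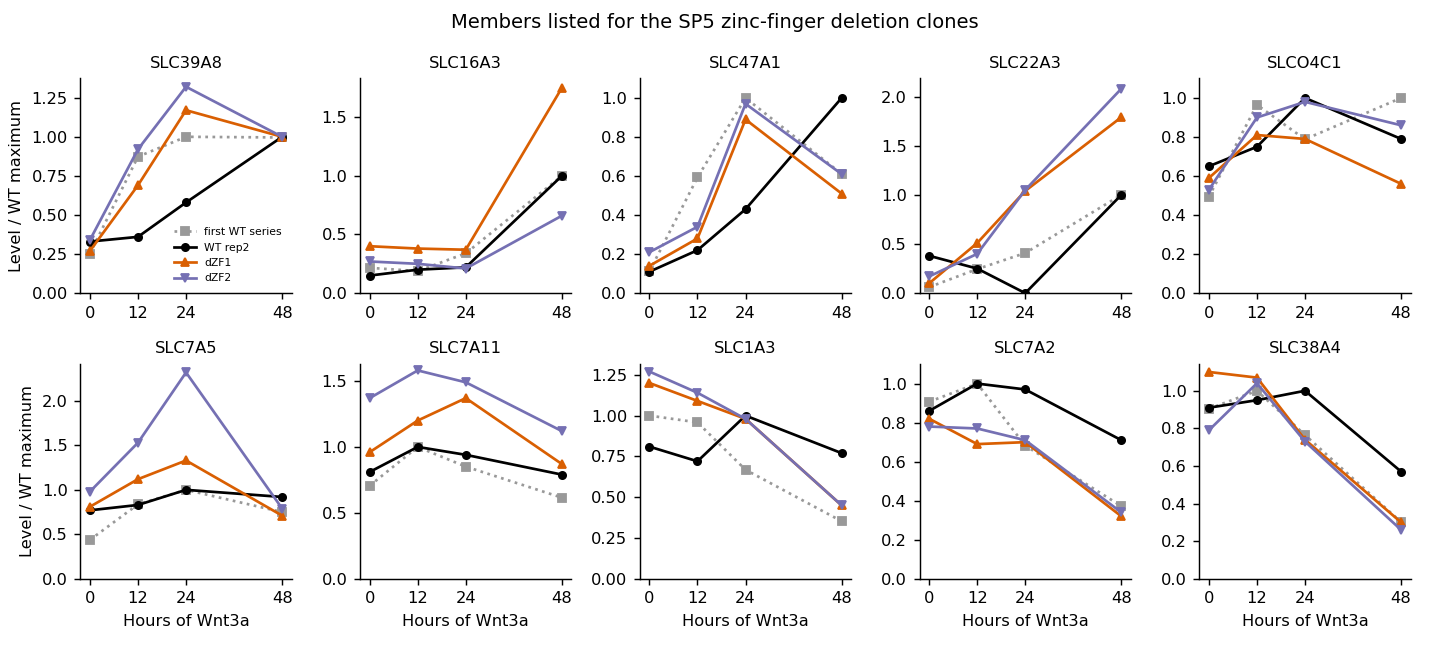
The 10 members with values in the clones, 1 panel each: level as a ratio to the WT maximum (own maximum for the first WT series, WT rep2 maximum for the other 3) against hours of Wnt3a, 1 library per point. For SLC39A8, SLC47A1, SLC1A3, SLC7A2 and SLC38A4 the dotted line of the first WT series ends or peaks with the clones, and the black line of WT rep2 lies apart at 12, 24 or 48 h. For SLC47A1 at 12 h it is the first WT series that lies apart (0.59, against 0.22 in WT rep2, 0.28 in dZF1 and 0.34 in dZF2).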

How the data were processed

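The first WT table holds RPKM per gene, which the authors computed with Cuffdiff from TopHat alignments to hg19, and which was deposited to 1 decimal. Its lowest maximum per gene is 4 RPKM. The deposited mutant table holds, per gene, the fraction of the WT rep2 maximum for WT rep2 and the ratio to that maximum for the clones. The deposited peak lists come from MACS 1.4.2 at p 1e-05, with tag counts, a score made from p, a fold enrichment and an FDR in percent. Both lists name the same ChIP library, of 18641194 tags from cells labelled H1 but carrying H9, another hESC line, in the header, and differ in the control. The submitters' processing notes also name Bowtie 0.12.7 and SAMtools 0.1.12a. Depth of the RNA libraries is not given in the sources used here, nor whether counting used strand (SLC7A6OS overlaps SLC7A6).

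Here, log2 ratios of RPKM + 1 were called at 2-fold, and ratios of the mutant table had 0.05 added. For the listed members, an exact permutation test of changes from 0 h, 2 WT series against 2 clones, was added after seeing the data. The calling step was tested on simulated data. Start sites are those of GENCODE 44 lifted to hg19. Python 3.11.15, pandas 2.3.3 and numpy 2.4.6 were used. Named were members listed in the mutant table, those past 2-fold, the 10 highest, those with a near-start summit, carriers known from pluripotent cells and those used in a pair or nearest to the 2-fold limit. Members, lists and pairs were chosen with earlier results of these data known. A change of more than 1.5 times in a count, or 0.1 in a median log2, counted as a move under an alternative. Another 2 WT tables of fractions of the maximum, which repeat the RPKM table on another scale, were not used.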

Additional observations from a re-analysis of the deposited data

Results flagged for a closer look

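In 3 of the 30 combinations of 10 members and 3 times, both WT series moved one way from 0 h and both clones the other, 1 at each time. Of the 497 genes, 6.04%, 2.01% and 1.61% did so at 12, 24 and 48 h. Each of the 3 gave p = 0.333 in a two-sided exact permutation test of 2 WT series against 2 clones, the smallest p it can give. Opposite signs fix this p in advance, so it adds nothing to the 3 results. SLC22A3 and SLC39A8 at 24 h, and SLC22A3 and SLC47A1 at 48 h, reached the same p without opposite signs. For SLC7A5 at 48 h the log2 change was 0.71 in the first WT series and 0.24 in WT rep2, and -0.18 in dZF1 and -0.29 in dZF2, so that the mean of the clones minus that of the WT series was -0.71. For SLC16A3 at 24 h the changes were 0.55 and 0.43 in the WT series and -0.10 and -0.30 in the clones (difference -0.69). For SLC7A2 at 12 h they were 0.13 and 0.21 in the WT series and -0.23 and -0.02 in the clones (difference -0.30), where the value of dZF2 went only from 0.78 to 0.77.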

How the results depend on the processing

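Counts of members past 2-fold depended on the constant added to RPKM. With 5 in place of 1, the 12, 24 and 48 h counts were 1, 2 and 2 higher and 0, 0 and 2 lower. With 0.1, the 12, 24 and 48 h counts were 3, 4 and 9 higher and 2, 2 and 10 lower. With a maximum RPKM of at least 10, the counts of higher members were 1, 2 and 3, and 0 were lower at 24 h. Without regulators and pseudogenes, 0 members were lower at 12 h and 0 at 24 h, and the same held without every symbol that is not a carrier, an alternative chosen after seeing the data. With 5 added, SLC39A8 and SLC16A3 were the 2 higher members left at 48 h, and SLC7A5P1 and SLC1A3 the lower ones. No median log2 change of the members moved by 0.1 under any of these, and setting the median of all genes to 0 moved no count past 1.5 times.

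Dividing each series by its own 0 h library gave 5 members higher in both clones than in WT rep2 and 2 lower at 12 h, and 1 higher at 48 h. With either clone left out, counts higher were 6 to 6 at 0 h, 9 to 9 at 12 h, 5 to 6 at 24 h and 3 to 3 at 48 h, and counts lower 4 to 4, 1 to 1, 4 to 5 and 6 to 6. Members with a summit numbered 2 within 10000 bases, 6 within 50000, 0 at an FDR of 5% and 2 over all transcript starts. The limits are 1 library per series and time, RPKM rounded to 1 decimal and the difference between the 2 WT series.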
